A study of Mus musculus with 4 samples.

Results

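The 10 smooth muscle contractile genes *Acta2*, *Actg2*, *Tagln*, *Myh11*, *Cnn1*, *Myl9*, *Des*, *Lmod1*, *Tpm1*, and *Tpm2* were followed across 4 bulk RNA-seq libraries, out of 23946 gene symbols listed in each library. They were chosen by name as parts of the smooth muscle contractile apparatus, with FPKM values of these libraries already known, so their levels are a description and no test is given. RNA came from CD51+;CD200+ skeletal stem/progenitor cells of wild-type CD-1 mice at postnatal day 3. There was 1 library for each of 3 skull sutures, the coronal (COR), the sagittal (SAG), and the posterior frontal (PF), and 1 for the growth plate of the tibia (GP), which served as the control. The suture tissue was dissected with the bone fronts, the underlying dura mater, and the overlying periosteum. All cells passed a repeated FACS sort as positive for CD51, the integrin αV, and CD200, a membrane glycoprotein, and as negative for 6C3 and CD105, for both Thy1 alleles, for the endothelial receptor Tie2, and for the blood antigens CD45 and Ter119. They came from many mice. At this age all 3 sutures are open, and PF is the suture that later fuses.

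Smooth muscle contracts when filaments of myosin II pull on filaments of actin. A calcium signal switches on myosin light chain kinase, which phosphorylates the regulatory light chain, and a phosphatase reverses this. In skeletal tissue the same genes are known from the smooth muscle and pericytes of vessel walls, and several of them, *Acta2*, *Tagln*, *Tpm1*, and *Tpm2* among them, are also expressed by fibroblasts and osteogenic mesenchyme. Many smooth muscle genes are controlled by serum response factor (SRF), which binds a short DNA motif called the CArG box.

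All 10 members were lowest in SAG, as were 25.2% of the 13998 genes that reached 1 FPKM in any library. Of the members 9 were highest in PF, against 35.2% of these genes, and the remaining 1, *Myh11*, was highest in GP. Relative to *Gapdh* it too was highest in PF, but *Gapdh* was lowest in PF, at 281 FPKM against 389 in GP. That scaling therefore raised all PF levels relative to GP. The order PF, GP, COR, SAG from high to low was held by 8 of the 10 members and by 5.52% of the 13998 genes. The 10 genes summed to 3581 FPKM in PF, 2371 in GP, 1585 in COR, and 474 in SAG, or 0.650%, 0.460%, 0.323%, and 0.106% of the total FPKM of each library. FPKM, fragments scaled by transcript length and by mapped fragments, is a level per length, so it may be compared between genes. In bulk RNA a smaller number of cells of a type and less RNA per cell cannot be told apart. With 1 library per tissue, a property of the tissue and a property of its library cannot be told apart either, and there is no replicate error.

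The number of sequenced fragments is not stated beside the FPKM values. It was approximated from the FPKM worth of 1 fragment, the most frequent low value of FPKM multiplied by transcript length, which was 0.0588 FPKM kb in PF, 0.0313 in GP, 0.0288 in COR, and 0.0261 in SAG. Provided that FPKM scales with fragments, PF held 44.3% of the fragments of SAG, GP 83.4%, and COR 90.6%. The low member levels of SAG were therefore read at the greatest depth and the high ones of PF at the least. No member was listed at 0 in any library. *Sparc*, *Col1a1*, and *Col1a2*, abundant matrix genes, are listed at 0 in COR, and *Col1a2* also in GP, although *Sparc* was at 9849 FPKM in PF and 9678 in GP.

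SRF motifs were searched in the RefSeq promoters of the members, in the 250 bases before the RefSeq start site. The search was made because the members shared a pattern and SRF is the regulator they are best known to share. Entries were found for 7 members, *Acta2*, *Cnn1*, *Des*, *Lmod1*, *Myl9*, *Tpm1*, and *Tpm2*, and all 7 matched the mm9 genome exactly at 1 place. *Actg2*, *Tagln*, and *Myh11* had no entry. The gene positions given below are those of GENCODE, whose start sites differ from those of RefSeq. The windows of *Lmod1*, *Myl9*, *Tpm1*, and *Tpm2* therefore lie partly within the gene positions. For *Tpm1* (window 66897021 to 66897270) and *Tpm2* (43536427 to 43536676) most of the window does, so these were not purely upstream sequence. The CArG box has a pair of C, then 6 bases that are each A or T, then a pair of G, and its reverse complement has the same form, so a single search covers both strands. The box was found in 1 of the 7 members, *Myl9*, and in 1.47% of 32851 promoter windows of the same length. When 1 of the 6 central bases was also allowed to be C or G, the box or this variant was found in 2 of the 7 members, *Acta2* and *Myl9*, each with 2 places, and in 8.59% of all windows. The places are given in capitals, each with 20 bases on either side, 5′ to 3′ on the strand of the gene. Distances are counted from the RefSeq start site and not from the gene positions given below. The first *Acta2* place begins 84 bases before the RefSeq start site and the second 34 bases before it, and both are variants. The first *Myl9* place, 161 bases before the RefSeq start site, is the full box, and the second, 99 bases before it, is a variant. A match is a description of the letters and does not show binding, and the introns and distal sequence of these genes were not searched.
Acta2, chr19:34329918-34329967, minus strand: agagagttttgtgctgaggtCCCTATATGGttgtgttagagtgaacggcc
Acta2, chr19:34329868-34329917, minus strand: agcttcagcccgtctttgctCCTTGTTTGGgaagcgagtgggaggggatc
Myl9, chr2:156601019-156601068, plus strand: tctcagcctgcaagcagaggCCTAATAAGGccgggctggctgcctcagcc
Myl9, chr2:156601081-156601130, plus strand: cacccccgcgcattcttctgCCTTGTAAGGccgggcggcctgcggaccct

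Of the thin filament genes, *Acta2* (mm9 chromosome 19, 34315580 to 34329826) encodes smooth muscle α-actin, the actin of vascular smooth muscle. It was at 530.4 FPKM in PF, 400.2 in GP, 232 in COR, and 38.9 in SAG. SAG stood apart below the other libraries, with the PF level 13.6 times and the COR level 5.96 times that of SAG. *Actg2* (chromosome 6, 83462899 to 83486259) encodes smooth muscle γ-actin, known from visceral muscle, and was at 90.3 FPKM in PF, 65.6 in GP, 31.4 in COR, and 1.56 in SAG. Here the distance to SAG was wider, with 58.0 times as much FPKM in PF and 42.1 times as much in GP. The coding sequences of the actin genes are nearly identical, so fragments may have been divided between them by the authors' estimation, and the split between *Acta2* and *Actg2* is uncertain.

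*Tpm1* (chromosome 9, 66870397 to 66897213) and *Tpm2* (chromosome 4, 43527583 to 43536637) encode tropomyosins, which lie along the actin filament and have both muscle and nonmuscle forms. *Tpm1* was at 949 FPKM in PF, 878 in GP, 759 in COR, and 291 in SAG. It varied least of the 10 members, with its highest level 3.26 times its lowest. *Tpm2* was at 253 FPKM in PF, 177 in GP, 184 in COR, and 30.1 in SAG, so that COR and GP were nearly level and SAG was again far below. Values per gene symbol do not separate the muscle from the nonmuscle forms.

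*Myh11* (chromosome 16, 14194620 to 14291501), the myosin heavy chain of smooth muscle and the most restricted marker of that cell type among the members, was at 17.3 FPKM in PF, 19.2 in GP, 3.46 in COR, and 0.425 in SAG. Unlike the actins, it was much lower in COR than in GP, by 5.54 times, and PF and GP were close. *Myl9* (chromosome 2, 156601156 to 156607394), the regulatory light chain that light chain kinase phosphorylates, was at 1474 FPKM in PF, 657 in GP, 298 in COR, and 91.7 in SAG. It was the most abundant member in PF and had the widest difference between PF and GP of any member, at 2.24 times. In SAG, COR, and GP the most abundant member was *Tpm1*.

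Of the genes for proteins that bind actin, *Tagln* (chromosome 9, 45737711 to 45744141) encodes transgelin or SM22α, an early marker of smooth muscle, and was at 221 FPKM in PF, 139 in GP, 65.4 in COR, and 15.9 in SAG. *Cnn1* (chromosome 9, 21903725 to 21914074) encodes calponin 1, which restrains the myosin ATPase, and was at 33.1 FPKM in PF, 28.6 in GP, 9.78 in COR, and 4.12 in SAG. Both followed the common order, with COR nearer to SAG for *Cnn1* than for *Tagln*. *Lmod1* (chromosome 1, 137221384 to 137264642), the leiomodin that starts actin filaments in smooth muscle, was the least abundant member, at 3.47 FPKM in PF, 1.74 in GP, 0.195 in COR, and 0.0626 in SAG. It reached 1 FPKM in PF and GP only. *Des* (chromosome 1, 75356904 to 75365154), the muscle intermediate filament desmin, was at 9.81 FPKM in PF, 5.60 in GP, 1.41 in COR, and 0.0782 in SAG. The SAG levels of *Des* and *Lmod1* each correspond to about 9 fragments, and the COR level of *Lmod1* to about 27, taking the longest annotated transcript as the length, so their quotients are imprecise. By the same measure *Actg2* rested on about 80 and *Myh11* on about 108 fragments in SAG.

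**Figure D1:**
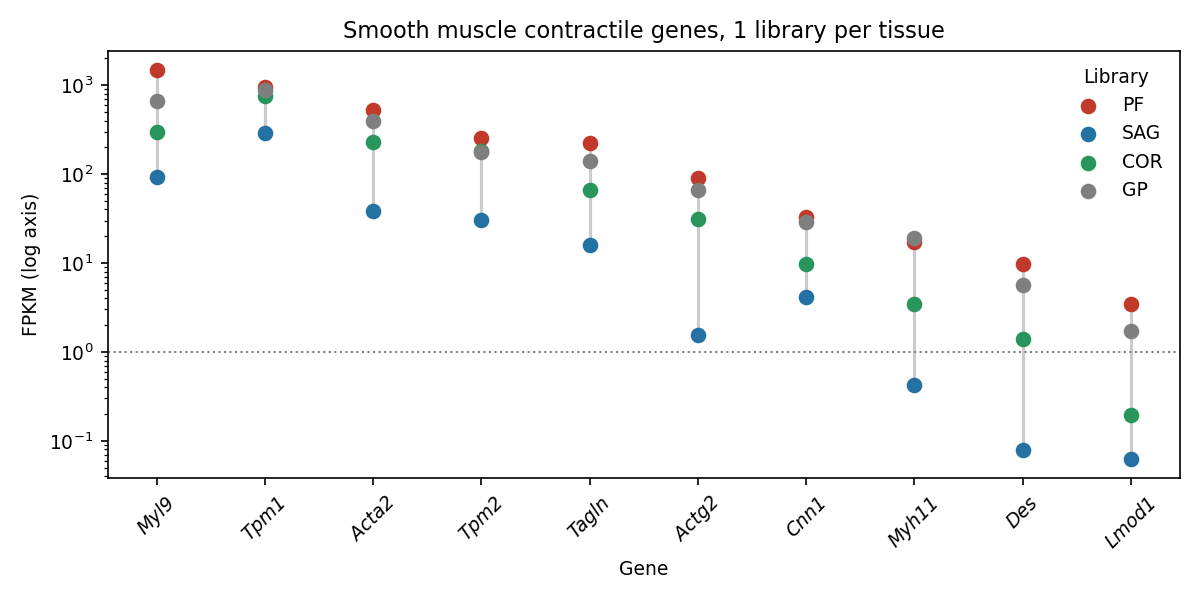
FPKM (log axis) of the 10 contractile genes in the PF, SAG, COR, and GP libraries, with 1 point per library, a grey line from the lowest to the highest value of each gene, and a dotted line at 1 FPKM. SAG is the lowest point for all 10 genes, and PF is the highest for all except *Myh11*, at 17.3 FPKM in PF and 19.2 in GP. That order turned relative to *Gapdh*, a scaling that raised all PF levels relative to GP.

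The libraries were next compared in pairs on the log2(FPKM + 1) scale, which understates differences of low genes. A gene was compared where either library of the pair reached 1 FPKM, and it was counted as different at 3-fold, a log2 difference of 1.58, the fold used in the study. The members were chosen with these same differences known, so nothing is read from their counts against those of all genes. Between PF and SAG, 10 of 10 members were at least 3-fold higher in PF, against 6.64% of all 13490 genes compared (9.04% were lower in PF). The median log2 difference was 3.51, or 11.4-fold, from 1.70 for *Tpm1* to 5.16 for *Actg2*, and the median over all genes was 0.03. *Tpm1* was the member nearest the threshold, and with quantile normalization its log2 difference was 1.27, below it.

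Between PF and COR, 6 of 10 members were at least 3-fold higher in PF, against 6.81% of 12853 genes (4.87% were lower). These were *Myl9* at a log2 difference of 2.30, *Des* at 2.16, *Myh11* at 2.04, *Lmod1* at 1.90, *Tagln* at 1.74, and *Cnn1* at 1.66. The 4 members under 3-fold were the actins and tropomyosins, with *Actg2* at 1.49, *Acta2* at 1.19, *Tpm2* at 0.46, and *Tpm1* at 0.32. All 10 were higher in PF, with a median of 1.70 and a median over all genes of 0.05. *Cnn1* lay just inside the threshold and *Actg2* just outside it. With quantile normalization *Tagln* was at 1.57, under it, and with upper quartile scaling *Actg2* was at 1.63, past it.

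Between COR and SAG, 9 members could be compared, since *Lmod1* was under 1 FPKM in both. At least 3-fold higher in COR were 6 of the 9, against 3.11% of 12720 genes (6.15% were lower), with *Actg2* at a log2 difference of 3.66, *Tpm2* at 2.58, *Acta2* at 2.54, *Tagln* at 1.97, *Myl9* at 1.69, and *Myh11* at 1.65. *Tpm1* was at 1.38, *Des* at 1.16, and *Cnn1* at 1.07. The median was 1.69, and over all genes it was -0.02. *Myl9* and *Myh11* were under 3-fold with upper quartile scaling, at 1.48 and 1.53, which left 4 of 9, and *Des* was past it with a pseudocount of 0.1, at 3.08.

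GP was compared with each suture as the control. Between PF and GP, 0 of 10 members were at least 3-fold different in either direction, against 5.72% of 13101 genes higher and 6.24% lower in PF, and the median log2 difference of the members was 0.48, from -0.14 for *Myh11* to 1.16 for *Myl9*. *Myh11* alone was lower in PF, and relative to *Gapdh* it was at 0.31, under a scaling that put the median of all genes at 0.46. Between SAG and GP, 9 of 10 members were at least 3-fold lower in SAG, against 3.86% of 12929 genes (4.80% were higher), with a median of -2.72. The exception was *Lmod1* at -1.36, which was at -3.50 with a pseudocount of 0.1, and *Tpm1*, at -1.59, was at -1.19 with quantile normalization. Between COR and GP, 1 of 10 members, *Myh11* at -2.18, was at least 3-fold lower in COR, against 3.20% of 12209 genes (1.20% were higher). The median was -1.11, and *Tpm2* alone was above 0, at 0.06. The side of the tropomyosins depended on the scaling, with *Tpm2* at -0.07 under upper quartile scaling and under GC correction, and *Tpm1* at 0.01 relative to *Gapdh*. *Des* and *Lmod1* were at -1.45 and -1.20 in this pair and were past 3-fold with a pseudocount of 0.1, at -1.92 and -2.64. These comparisons share libraries, so their values are given side by side and not as separate evidence.

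**Figure D2:**
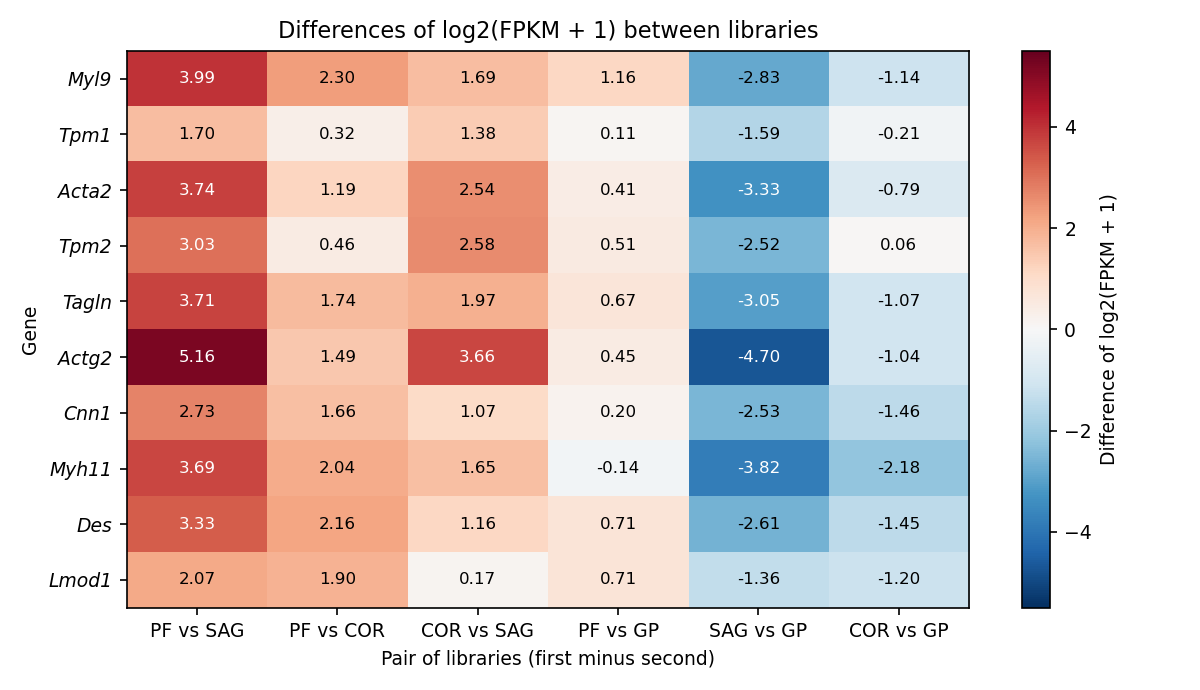
Difference of log2(FPKM + 1) for each of the 10 genes (rows) in each of the 6 pairs of libraries (columns), first library minus second, with red for higher and blue for lower in the first. The PF vs SAG column runs from 1.70 to 5.16, and the PF vs GP column from -0.14 to 1.16.

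The members differed in where COR fell between SAG and PF. On the log2 scale, with SAG at 0% and PF at 100% of the span of each gene, COR lay at 85% for *Tpm2*, 81% for *Tpm1*, 71% for *Actg2*, and 68% for *Acta2*. It lay at 53% for *Tagln*, 45% for *Myh11*, 42% for *Myl9*, 39% for *Cnn1*, 35% for *Des*, and 8% for *Lmod1*. The actins and tropomyosins were thus nearer to PF in COR, and *Myl9*, *Cnn1*, and *Lmod1* were nearer to SAG. The side of *Myh11* and *Des* depended on the pseudocount, which pulls low values together. Without it, COR lay at 57% for *Myh11* and 60% for *Des*, nearer to PF, at 28% for *Lmod1*, and at 42% and 41% for *Myl9* and *Cnn1*.

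Most contractile proteins have close relatives in nonmuscle cells. In the families of the members 24 related genes were listed, among them the nonmuscle actins, myosins, and tropomyosins. The list also holds muscle genes, such as the striated muscle actins *Acta1* and *Actc1*. The medians of all related genes compared in a pair of libraries lay nearer to 0 than those of the members for each pair involving SAG. *Actb*, the cytoplasmic β-actin, was at 1439 FPKM in PF, 1509 in GP, 1641 in COR, and 866 in SAG, and *Actg1*, the cytoplasmic γ-actin, at 475, 397, 486, and 348 in the same order. Between PF and SAG, 2 of the 18 relatives compared were at least 3-fold higher in PF, against 6.64% of all genes. These 2 were *Cnn2*, a widely expressed calponin, at 1.86, and *Myh9*, the nonmuscle heavy chain IIA, at 1.64. The median log2 difference of the 18 relatives was 0.29. Between COR and SAG, 4 of 18 relatives were at least 3-fold higher in COR, against 3.11% of all genes. They were *Vim* at 2.09, *Tagln2* at 1.91, *Cnn2* at 1.90, and *Myh9* at 1.66. Between PF and COR, 0 of 17 were higher in PF and *Vim*, the mesenchymal intermediate filament vimentin, was lower in PF at -1.80. Between PF and GP, 1 of 20 was lower in PF, *Tmod2*, a tropomodulin gene, at -1.59, and 0 of 21 passed between SAG and GP and 0 of 20 between COR and GP. For so few genes, counts of 0 or 1 are near the shares of all genes given above for these pairs.

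The share of a family's summed FPKM held by its smooth muscle members does not change when a library is rescaled by a single factor. Smooth muscle actins, *Acta2* and *Actg2*, held 24.5% of the FPKM of the 6 actin genes in PF, 19.6% in GP, 11.0% in COR, and 3.22% in SAG. *Myh11* held 38.7% of the FPKM of 4 myosin heavy chains in PF, 54.1% in GP, 12.8% in COR, and 3.22% in SAG. The SAG share was the lowest in both families, but PF was highest for the actins and GP for the heavy chain. *Myl9* held 67.2%, 51.1%, 29.6%, and 15.8% of the regulatory light chains in PF, GP, COR, and SAG. *Tagln* held 38.7%, 26.3%, 9.39%, and 8.46% of the transgelins in that order, so that COR and SAG were close, with *Tagln2* at 628 FPKM in COR and 166 in SAG. *Tpm1* and *Tpm2* together held 77.7%, 66.5%, 56.0%, and 51.9% of the tropomyosins. *Cnn1* was a minor calponin throughout, at 3.75%, 3.34%, 0.804%, and 0.559%. *Lmod1* held 16.2% of the leiomodins and tropomodulins in PF and 0.161% in SAG, and *Des* held 2.82% of desmin and vimentin together in PF and 0.0282% in SAG.

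**Figure D3:**
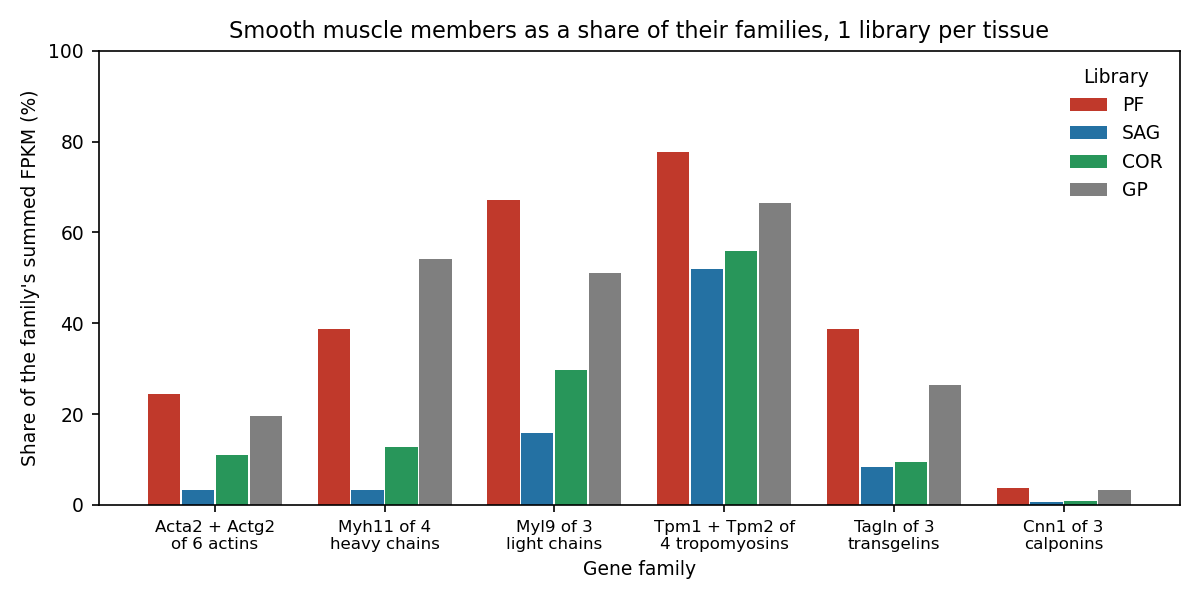
Share (%) of the summed FPKM of 6 gene families that belonged to their smooth muscle members, with 1 bar per library. The SAG bar is the lowest in every family shown, from 0.559% for *Cnn1* to 51.9% for the tropomyosins, and GP exceeds PF for *Myh11* only.

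Genes outside the 10 members that serve the same machinery were less uniform. Of 20 further genes of the contractile apparatus and of actin bundles, 19 were compared in each pair. Of all genes, from 1.20% to 9.04% were past 3-fold in a given direction, depending on the pair. Between PF and SAG, *Csrp1*, a LIM protein, and *Fhl1* were at least 3-fold higher in PF, at 1.87 and 1.79, and *Pdlim3*, an α-actinin partner, was lower in PF at -3.87, with a median of 1.02 over the 19. Between COR and SAG, 5 were higher in COR, *Filip1l* at 3.27, *Csrp1* at 2.36, *Smtn*, the smoothelin gene, at 2.10, *Fhl1* at 2.04, and *Vcl*, the vinculin gene, at 1.74, and 1 was lower, *Pdlim3* at -2.07. Between PF and COR, 0 of the 19 were higher in PF, while *Filip1l* and *Pdlim3* were lower at -2.37 and -1.79. Between SAG and GP, 4 were lower in SAG, *Filip1l* at -2.57, *Csrp1* at -1.80, *Fhl1* at -1.67, and *Smtn* at -1.59. *Filip1l* and *Pdlim3* were also lower in PF than in GP, at -1.67 and -3.25, and 0 of the 19 passed between COR and GP. The most abundant gene of this list, *Myl6*, the essential light chain, was at 1064 FPKM in PF, 887 in GP, 848 in COR, and 473 in SAG, and *Ckb*, a creatine kinase, was at 218, 188, 182, and 394.

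Of the 10 genes that set light chain phosphorylation, a single gene was past 3-fold in any pair, a count not far from the shares of all genes. The gene was *Ppp1r14a*, which encodes CPI-17, an inhibitor of myosin light chain phosphatase that is abundant in smooth muscle. It was at 56.1 FPKM in PF, 54.0 in GP, 6.35 in COR, and 2.16 in SAG. The gene was high in PF and GP and low in SAG and COR, with log2 differences of 4.17 between PF and SAG, 2.96 between PF and COR, -4.12 between SAG and GP, and -2.90 between COR and GP. *Mylk*, the light chain kinase, was at 11.4, 11.1, 10.5, and 8.95 FPKM in PF, GP, COR, and SAG, and *Rhoa*, a small GTPase gene, was at 155, 213, 245, and 151.

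Of the SRF group, *Srf* was at 11.9 FPKM in PF, 5.86 in GP, 8.74 in COR, and 5.24 in SAG. *Myocd*, the gene of myocardin, the SRF coactivator of smooth and cardiac muscle, was at 1.30 FPKM in PF, 0.516 in GP, 0.180 in COR, and 0.169 in SAG. *Mkl1* and *Mkl2*, which encode coactivators that respond to actin assembly, ran from 1.95 FPKM in SAG to 5.06 in COR and from 3.42 in GP to 5.27 in SAG. On the log2(FPKM + 1) scale no gene of this group was past 3-fold in any pair. The pseudocount pulls the low *Myocd* levels together, to log2 differences of 0.98 between PF and SAG and 0.96 between PF and COR. By FPKM alone its PF level was several times that of SAG and of COR. With 4 genes listed, a count of 0 is also near the shares of all genes given above. *Srf* and *Myocd* were highest in PF, like the members, whereas the *Mkl1* level was highest in COR.

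Markers of mural cells, the smooth muscle cells and pericytes of vessels, partly followed the members. The 10 mural markers summed to 135 FPKM in PF, 105 in GP, 65.3 in COR, and 32.5 in SAG, the same order as the members. *Rgs5*, a regulator of G protein signaling typical of pericytes, was at 7.50 FPKM in PF, 10.8 in GP, 0.432 in COR, and 0.614 in SAG, and *Mcam*, the gene of CD146, was at 29.7, 39.4, 7.59, and 2.28. Between PF and SAG, 5 of 9 mural markers compared were at least 3-fold higher in PF, against 6.64% of all genes. They were *Mcam* at 3.22, *Heyl* at 2.95, *Rgs5* at 2.40, *Kcnj8* at 2.36, and *Pdgfrb* at 1.74. Between PF and COR, 3 of 9 were higher in PF, against 6.81% of all genes, *Heyl* at 2.90, *Rgs5* at 2.57, and *Mcam* at 1.84. *Rgs5* and *Mcam* were also lower in COR than in GP, at -3.04 and -2.23, and in SAG than in GP, at -2.87 and -3.62, as was *Kcnj8* in SAG at -1.62. Between COR and SAG, 0 of 7 mural markers were past 3-fold, with *Rgs5* at -0.17 and *Mcam* at 1.39. Of all genes 3.11% were higher and 6.15% lower in COR in this pair, so a count of 0 of 7 is near those shares. *Pdgfrb* was the most abundant of the list, at 48.3 FPKM in PF and 13.8 in SAG. *Cspg4*, the gene of the pericyte antigen NG2, had another order, at 8.81 FPKM in PF, 16.7 in GP, 19.7 in COR, and 9.55 in SAG, lowest in PF and highest in COR. *Enpep*, the gene of the excluded antigen 6C3 and also a pericyte marker, was at 7.05 FPKM in PF, 1.39 in GP, 3.74 in COR, and 2.74 in SAG, with a log2 difference of 1.75 between PF and GP. *Higd1b*, another pericyte marker, is listed at 0 in PF and COR. The part of mural cell RNA in the member levels was not tested.

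Other lists differed between the same libraries. The 8 neural markers summed to 126 FPKM in PF, 140.2 in GP, 37.4 in COR, and 27.5 in SAG. Of these, *Mbp* and *Sox10*, typical of glia and picked out after their values were seen, were higher in PF and GP than in COR and SAG, like *Myh11*. *Mbp*, a myelin protein gene, was at 88.1 FPKM in PF, 82.9 in GP, 13.0 in COR, and 12.2 in SAG. *Sox10*, a transcription factor gene, was at 6.46, 14.6, 2.80, and 0.650 FPKM across them. The neuronal gene *Map2* was highest in SAG, at 4.43 FPKM, and *Tubb3* in COR, at 10.2. The choroid plexus list summed to 5338 FPKM in SAG, 479.5 in PF, 147 in COR, and 10.8 in GP, most of it *Ttr*, the transthyretin gene, at 5103 in SAG. The chondrocyte list summed to 3217 FPKM in SAG, 2737 in GP, 115 in PF, and 102 in COR, with *Col2a1*, the gene of type II collagen, at 1749.8 in SAG and 1731 in GP. SAG thus carried the lowest member levels and the highest sums of the choroid plexus and chondrocyte lists. Gene by gene the chondrocyte list was near level in SAG and GP, with a median log2 difference of -0.08. In GP high chondrocyte levels stood beside high member levels. The part of each of these in the member levels was not tested.

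The 6 osteoblast lineage markers, which bear on the label of skeletal stem cells, were above 1 FPKM in every library and summed to 2711 FPKM in PF, 8126 in GP, 11564 in COR, and 865 in SAG. The most abundant was *Spp1*, the osteopontin gene, at 8324 FPKM in COR. *Sp7*, the osterix gene, was at 33.8 FPKM in PF, 47.3 in GP, 199.9 in COR, and 7.93 in SAG. This list was lowest in SAG, like the members, but highest in COR. The 12 skeletal muscle markers summed to 23.2 FPKM in GP and 11.0 or less in the sutures, with *Myod1* and *Pax7* listed at 0 in all 4 libraries. Most of the GP sum was *Tnni2*, a fast troponin gene, at 14.3 FPKM. The 7 cardiac markers summed to 21.6, 9.52, 6.05, and 6.33 FPKM in PF, GP, COR, and SAG, mostly *Myl4*, at 16.8 in PF. The striated actins *Acta1* and *Actc1* were at 1.57 FPKM or less in every library. Leukocyte markers summed to 35.1 FPKM in PF and 10.7 or less elsewhere, with *Lyz2* at 30.2 in PF, and erythroid markers to 15.6 in PF and 1.94 or less elsewhere. Endothelial markers summed to 16.9 FPKM in SAG, mostly *Kdr* at 14.9, and to 4.37 or less elsewhere. *Itgav* and *Cd200*, the genes of the antigens CD51 and CD200, were present in all 4 libraries, from 6.20 FPKM in SAG to 15.0 in COR and from 23.5 in PF to 62.6 in COR. With the 5 excluded antigens measured beside them they summed to 45.8 FPKM in PF, 73.2 in GP, 82.9 in COR, and 58.4 in SAG.

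**Figure D4:**
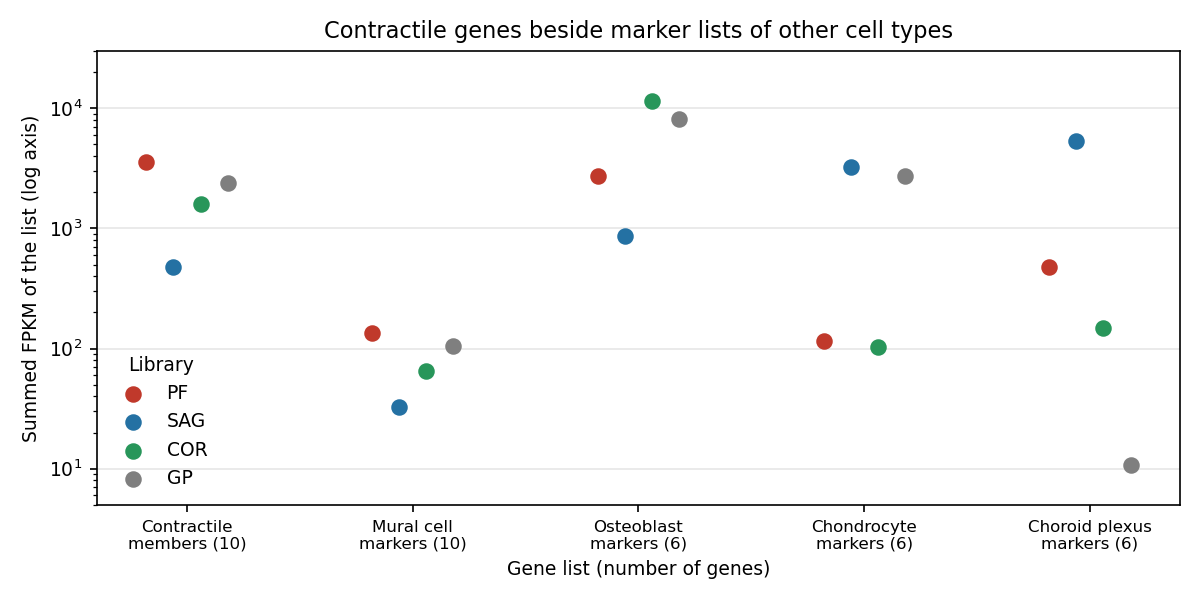
Summed FPKM (log axis) of the 10 contractile genes and of 4 marker lists, with 1 point per library. The contractile genes run from 474 in SAG to 3581 in PF and the mural markers from 32.5 to 135 in the same libraries, while the choroid plexus list is highest in SAG at 5338.

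The genes whose pattern lay nearest to that of the members were sought among 9793 other genes that reached 5 FPKM in any library. The mean centred profile of the 10 members on the log2(FPKM + 1) scale was 1.33 in PF, 0.85 in GP, -0.20 in COR, and -1.98 in SAG, and likeness was the Euclidean distance to it over the 4 libraries. The 5 nearest were *Gal3st1* at a distance of 0.20, *Sncg* at 0.31, *Dhh* at 0.43, *Egfl8* at 0.50, and *Sema3a* at 0.53, against a median distance of 2.61 over the candidates. *Gal3st1*, which encodes a sulfotransferase of glycolipids, was at 13.1 FPKM in PF, 10.7 in GP, 3.92 in COR, and 0.622 in SAG. *Dhh*, the gene of desert hedgehog, was at 15.5, 11.7, 5.13, and 1.43 FPKM, and *Egfl8* was at 85.6, 72.8, 25.5, and 5.43. *Sncg*, the gene of γ-synuclein, was at 14.7, 14.0, 4.77, and 0.778 FPKM, and *Sema3a*, the gene of a secreted semaphorin, was at 14.0, 12.4, 7.46, and 1.19. Of the members themselves, *Tagln* lay closest to their mean profile, at 0.28, and *Actg2* farthest, at 1.61. With 4 libraries many unrelated genes can share a profile, and the list is a description of these libraries only.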

How the data were processed

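RNA-seq was available as 1 library per tissue. Per the submitters' processing notes and the methods, the authors aligned read pairs with STAR 2.5.1b to mm9 and deposited FPKM per gene symbol from Cuffdiff (Cufflinks 2.2.1), with the iGenomes gene model. How Cuffdiff scaled the libraries is not given in the sources used here. Samples were grouped by title.

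Differences were taken on the log2(FPKM + 1) scale where either library of a pair reached 1 FPKM, and were counted at 3-fold over the whole table. With 1 library per tissue no test was made. The members and lists were chosen with earlier results of these data known. Named were all members, genes of the contractile, regulatory, and mural lists past 3-fold that reached 5 FPKM, the 2 most abundant genes of these lists, and the 5 genes nearest in profile; for marker lists of other cell types the sum is given with few of the names this rule allows; *Map2*, *Sparc*, *Col1a1*, *Col1a2*, *Tmod2*, *Mylk*, *Higd1b*, *Cspg4*, and the lower genes of the SRF and muscle lists were named after their values were seen. Some genes that the rule names are not reported here.

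Gene positions and transcript lengths were those of GENCODE vM1 on NCBIM37 (mm9). Promoters were those of RefSeq (GRCm38.p6), placed on NCBIM37 by exact match of their 250 bases. The counting step was tested on simulated data with large planted changes and little noise. This checks the arithmetic of the calls and not how they behave in these libraries. Alternatives were other scalings, filters, and pseudocounts, and a loess correction for GC content (span 0.3). Computations used statsmodels 0.14.6, pandas 2.3.3, and numpy 2.4.6 in Python 3.11.15, and plots matplotlib 3.10.9.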

Additional observations from a re-analysis of the deposited data

How the results depend on the processing

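The 8 alternatives planned for the pairs and 2 added after seeing the data (GC correction and no pseudocount) changed no direction of a median over the members. The median log2 difference ran from 3.11 to 3.90 for PF vs SAG, 1.58 to 1.95 for PF vs COR, 1.53 to 2.57 for COR vs SAG, 0.30 to 0.95 for PF vs GP, -3.24 to -2.63 for SAG vs GP, and -1.22 to -0.89 for COR vs GP. It was just under 3-fold for PF vs COR with quantile normalization (1.58) and for COR vs SAG with upper quartile scaling (1.53) and GC correction (1.53). Members past 3-fold for COR vs GP were 3 with a pseudocount of 0.1, 3 with none, and 2 after GC correction, in place of 1. Relative to *Gapdh*, 1 member in place of 0 was past 3-fold for PF vs GP, *Myl9* at 1.63; the median of all genes for PF vs SAG was 0.51 under this scaling and 0.03 as reported, and for COR vs SAG it was -0.21 under upper quartile scaling and -0.02 as reported. Of 573 values of single members, 9 lost and 13 gained the 3-fold call, and 0 called values reversed. The 573 include values under the filters, which choose the genes compared and leave each value as reported. Those values could not have changed a call. Of the values under 3-fold, *Myh11* for PF vs GP turned to 0.31 and *Tpm1* for COR vs GP to 0.01 relative to *Gapdh*, and *Tpm2* for COR vs GP turned to -0.07 with upper quartile scaling and GC correction. All 10 members were lowest in SAG under each of the 4 scalings, and 9 were highest in PF, or 10 relative to *Gapdh*. The causes were not tested. Leaving out *Acta1* and *Actc1* left the actin shares as given. At 1.57 FPKM or less, against 1255 or more for the family, these genes were too low to change them. No paired analysis was possible because there is 1 library per tissue. The shallow PF library limits low values most, and no interval covers differences between animals.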
